A study of Mus musculus with 4 samples.

Results

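Secreted adipocyte products were described here by 8 genes of the 32285 in the expression matrices, each found by its symbol: Adipoq, Lep, Retn, Cfd, Car3, Rbp4, Agt and Apoe. The study profiled RNA of single nuclei, by 10x droplets, from thymi of 6 naïve wild-type C57/BL6 males aged 4 months on standard chow, pooled into 1 library. A second library came from epigonadal white fat, labelled wild type, naïve, male and 4 months, and how many animals it holds is not stated in what was read here. Open chromatin came from a 10x multiome library of 16 pooled thymi of naïve wild-type C57/BL6 females aged 6 months on the same diet. Per the labels' protocols, thymi were freed of attached fat and digested, and nuclei were taken from the floating layer. All groups were single libraries, so no difference between them has a replicate check and no p-value is given. Intervals are at 95% and cover counting error only.

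Adipoq encodes adiponectin, Lep leptin and Retn resistin, hormones that adipocytes release into the blood. Cfd encodes complement factor D, also called adipsin, a serine protease of the alternative complement pathway that fat makes in large amounts. Rbp4 carries retinol in plasma, Agt is angiotensinogen, the precursor of the angiotensin peptides, and Apoe is an apolipoprotein made by adipocytes and also by macrophages. Car3, carbonic anhydrase III, is an abundant cytosolic enzyme of white adipocytes rather than a secreted product. Leptin in plasma follows fat mass, and white fat is a main source of both leptin and adiponectin.

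The 250 bases before 4 start sites are printed because the chromatin results below turn on them: Adipoq as an adipocyte gene with fragments at its start site in all 3 chromatin labels, Lep as a gene without thymic RNA in labelled nuclei, and Agt and Rbp4 as the genes with more fragments in one thymic label. They are RefSeq sequence of build GRCm38.p6, 5′ to 3′ on the gene's strand. Capitals mark the letters of 4 motifs on either strand: the sequence CCAAT of the box of that name, TATAAA as the promoter element near the start, GGGCGG as bound by Sp1, and TTGCNNAA as bound by C/EBP factors. RefSeq promoter rows matched 7 of the 8 genes, at 10 start sites, all but Car3.
Adipoq, chr16:23146286-23146535, plus strand: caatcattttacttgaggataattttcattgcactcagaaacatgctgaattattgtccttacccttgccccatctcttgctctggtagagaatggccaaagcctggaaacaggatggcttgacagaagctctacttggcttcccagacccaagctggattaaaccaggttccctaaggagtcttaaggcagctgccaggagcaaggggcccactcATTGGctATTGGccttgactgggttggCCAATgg
Lep, chr6:29059971-29060220, plus strand: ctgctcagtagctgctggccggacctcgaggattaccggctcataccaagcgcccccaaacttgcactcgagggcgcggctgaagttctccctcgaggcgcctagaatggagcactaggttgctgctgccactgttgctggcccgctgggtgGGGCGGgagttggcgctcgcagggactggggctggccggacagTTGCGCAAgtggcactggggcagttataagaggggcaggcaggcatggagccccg
Agt, chr8:124569707-124569956, minus strand: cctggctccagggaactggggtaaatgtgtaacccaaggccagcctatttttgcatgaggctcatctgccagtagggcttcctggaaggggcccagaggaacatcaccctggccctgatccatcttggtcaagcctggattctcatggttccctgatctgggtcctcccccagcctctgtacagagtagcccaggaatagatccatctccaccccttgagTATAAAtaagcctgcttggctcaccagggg
Rbp4, second start site, chr19:38124812-38125061, minus strand: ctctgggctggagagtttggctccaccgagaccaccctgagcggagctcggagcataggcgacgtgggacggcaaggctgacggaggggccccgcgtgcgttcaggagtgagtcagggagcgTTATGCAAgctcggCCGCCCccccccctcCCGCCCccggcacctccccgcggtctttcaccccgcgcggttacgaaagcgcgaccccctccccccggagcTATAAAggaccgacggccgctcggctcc
In the Lep sequence the palindrome TTGCGCAA, a case of TTGCNNAA, began 55 bases before the start site, and GGGCGG 98 bases before it. Of 32851 promoters of that length 9.56% held the C/EBP motif, 0.16% its palindrome and 32.74% the Sp1 motif. TATAAA began 30 bases before the Agt start site and 28 before the second Rbp4 start site, and 12.37% of promoters held it. Adipoq had CCAAT on either strand at 34, 27 and 7 bases before its start, and 33.85% of promoters held at least 1 match. The direct repeat bound by PPAR and RXR was found in 0.03% of promoters and in 0 of these 10 windows.

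The thymic matrix held 22600 barcodes, of which the authors labelled 365 nuclei, and the epigonadal matrix 5043 barcodes with 1564 labelled nuclei. The thymic nuclei divide into 35 labelled Ad Ia, 49 of Ad Ib, 231 of Ad IIa, 16 of Ad IIb and 34 of Ad IIc, and the epigonadal nuclei, in the same order, into 106, 152, 590, 58 and 658. The median nucleus of Ad Ia had 491 nuclear-encoded UMIs in thymus and 1031 in epigonadal fat. The libraries shared 147 barcodes, and 0 were labelled in both. The label names were checked against markers that include none of the 8 genes. Adipocyte markers were at 31780 and 35474 CPM (counts per 1000000 nuclear-encoded UMIs) in thymic and epigonadal Ad Ia, with 14 and 15 of 15 detected. Endothelial markers were at 12026 CPM in thymic and 8842 in epigonadal Ad IIa, with a median of 7 and 6.5 of 11 detected per nucleus. Epigonadal Ad IIc had 53453 CPM of adipocyte and 506 of endothelial markers, whereas thymic Ad IIc had 19664 and 10836, with 25948 CPM of erythroid RNA. Of the 15 adipocyte markers 15 were detected in epigonadal and 12 in thymic Ad IIc, where Plin1, Plin4 and Cebpa were at 0. These marker values stand beside each result on Ad IIa and Ad IIc below.

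RNA of all 8 genes was found in the epigonadal labels, and RNA of 6 in the thymic labels, where Lep and Agt had 0 UMIs among 534972. Levels differed by label within the thymus: in CPM, Ad Ia had Cfd and Car3 near the epigonadal Ad Ia level, and Ad IIa had little. Per nucleus, thymic Ad Ia held 3.51 Car3 and 1.66 Cfd UMIs, and the deeper epigonadal Ad Ia 7.28 and 2.49. Summed over the 8 genes, thymic Ad Ia gave 0.73% of its nuclear-encoded UMIs to them and epigonadal Ad Ia 0.885%. Epigonadal Ad IIc gave 5.02%, and thymic Ad IIa 0.0585%.

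**Figure D1:**
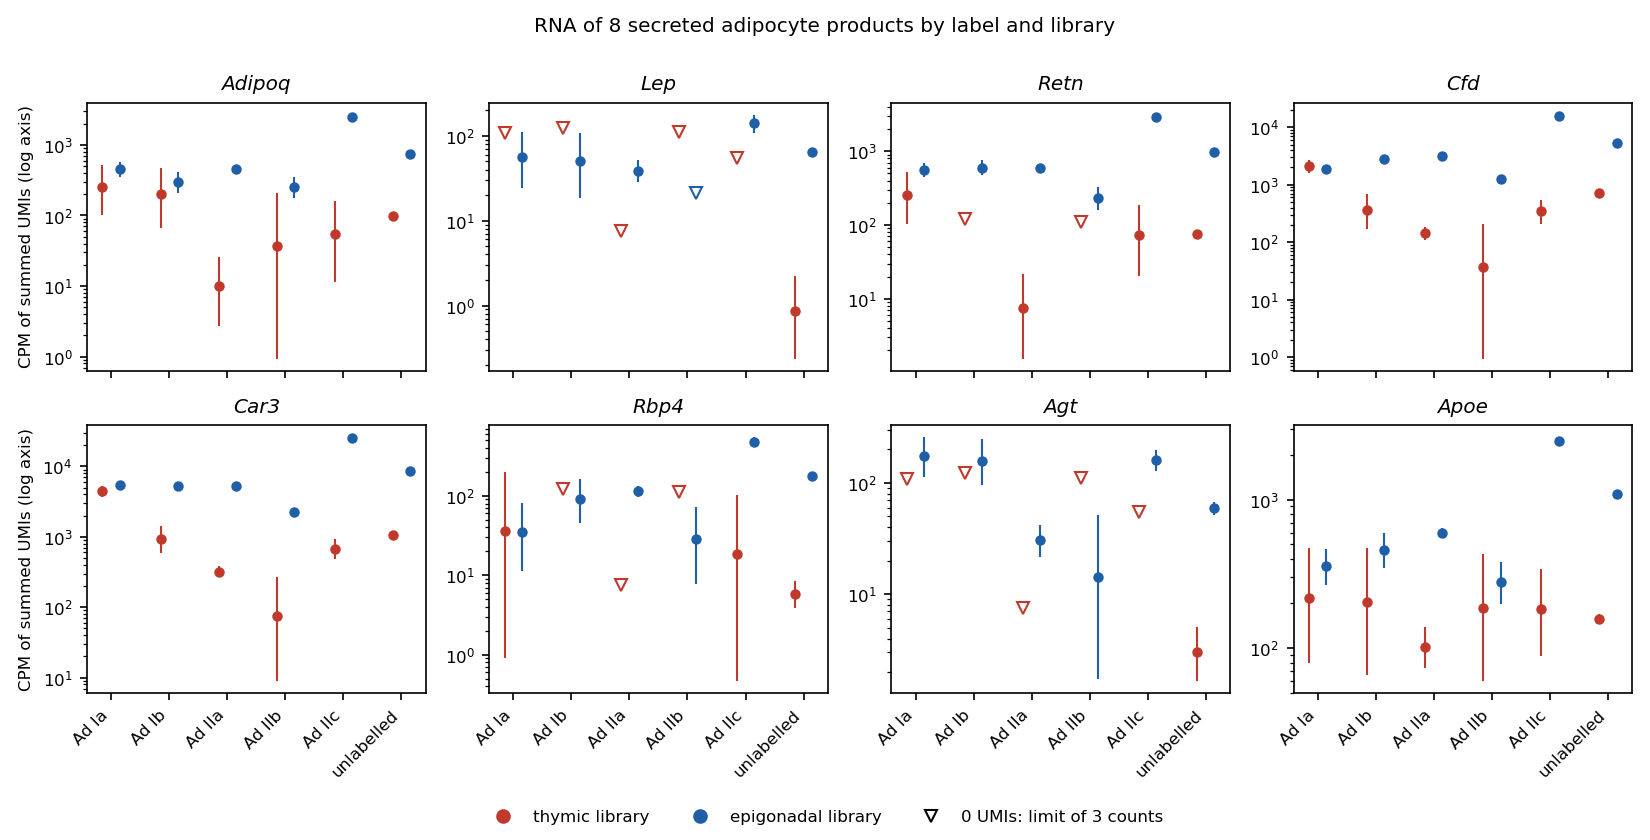
Level of each gene (y axis, CPM of summed UMIs, log scale) in the 5 labels and the unlabelled barcodes (x axis) of the thymic and epigonadal libraries. Bars are exact Poisson intervals and open triangles mark sums of 0 UMIs at the limit that 3 counts would give; epigonadal Ad IIc is highest for 7 genes, and Agt is at a like level in epigonadal Ad Ia, Ad Ib and Ad IIc.

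Adipoq (ENSMUSG00000022878, chromosome 16, 23146536 to 23157968 in GRCm38) was at 2513 CPM (2378 to 2653) in epigonadal Ad IIc, the highest label. It was at 453 in Ad Ia, 449 in Ad IIa, 299 in Ad Ib and 256 in Ad IIb, and the intervals of neighbours in that order overlapped below Ad IIc. In the thymic library it was at 253 CPM (102 to 521, 7 UMIs) in Ad Ia and 203 (66 to 475, 5 UMIs) in Ad Ib. Thymic Ad IIa had 9.96 CPM from 4 UMIs in 401448. The thymic Ad Ia and Ad Ib intervals overlapped the epigonadal ones, and the Ad IIa interval lay below all 5 epigonadal labels.

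Lep (ENSMUSG00000059201, chromosome 6, 29060221 to 29073876) had 0 UMIs in each thymic label. The sum over all thymic labels allows at most 5.61 CPM. In the epigonadal library Lep was at 139 CPM (109 to 176) in Ad IIc, Ad Ia at 55.7, Ad Ib at 49.9 and Ad IIa at 38.8, and Ad IIb had 0. Only 9.57% of the 658 Ad IIc nuclei had a Lep UMI. Over all labels Lep was at least 11.1-fold lower in the thymic library, but within Ad I 0 UMIs against 14 were too few to bound a fold.

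Retn (ENSMUSG00000012705, chromosome 8, 3655770 to 3659818) had 7 UMIs (253 CPM, 102 to 521) in thymic Ad Ia, 4 of them in 1 nucleus, and 0 in Ad Ib. Epigonadal Ad Ia, Ad Ib and Ad IIa lay at 564, 599 and 587 CPM, which did not differ beyond their intervals. Ad IIc was at 2945 CPM (2799 to 3097). Thymic Ad Ib was at least 4.91-fold lower than epigonadal Ad Ib, at 0 against 72 UMIs.

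Cfd (ENSMUSG00000061780, chromosome 10, 79890853 to 79892655) was at 2097 CPM (1592 to 2711) in thymic Ad Ia and 1838 (1623 to 2074) in epigonadal Ad Ia. The thymic value came from 58 UMIs in 13 of 35 nuclei, and 1 nucleus held 25 of them. Thymic Ad Ib was at 366 CPM (167 to 695) against 2819 (2527 to 3136) in epigonadal Ad Ib. Thymic Ad IIa was at 144 CPM, Ad IIc at 350 and Ad IIb at 37 from 1 UMI. The epigonadal order was Ad IIc at 15981 CPM, Ad IIa at 3190, Ad Ib at 2819, Ad Ia at 1838 and Ad IIb at 1272; of neighbours, only Ad IIa and Ad Ib overlapped in their intervals.

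Car3 (ENSMUSG00000027559, chromosome 3, 14863538 to 14872381) was at 4447 CPM (3696 to 5306, 24 of 35 nuclei) in thymic Ad Ia and 5376 (5004 to 5769, 102 of 106 nuclei) in epigonadal Ad Ia. Thymic Ad Ib was at 936 CPM, Ad IIc at 682, Ad IIa at 321 and Ad IIb at 74. Epigonadal Ad Ia, Ad Ib and Ad IIa, at 5376, 5206 and 5316 CPM, did not differ beyond their intervals, Ad IIb was at 2245 and Ad IIc at 25484. Within the thymic library Ad Ib was below Ad Ia for Car3 (log2 −2.22, −2.96 to −1.60) and Cfd (−2.45, −3.72 to −1.49), while within the epigonadal library the same ratios were −0.05 (−0.20 to 0.11) and 0.62 (0.38 to 0.85). The libraries were not replicated, so this difference in order was not tested. Endothelial markers were at 72.3 CPM in thymic Ad Ia and 3051 in thymic Ad Ib, adipocyte markers at 31780 and 16760. In epigonadal Ad Ia and Ad Ib these were 766 and 2029, and 35474 and 23833. The part of these markers was not tested.

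Rbp4 (ENSMUSG00000024990, chromosome 19, 38116620 to 38125321) had 2 UMIs in all thymic labels and 410 in the epigonadal ones. Epigonadal Ad IIc was at 482 CPM (424 to 546), Ad IIa at 114, Ad Ib at 91.5, Ad Ia at 34.8 and Ad IIb at 28.4. The 0 UMIs of thymic Ad IIa put it at least 15.3-fold below epigonadal Ad IIa.

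Agt (ENSMUSG00000031980, chromosome 8, 124556587 to 124569706) was ordered differently from the other genes. It was at 174 CPM (113 to 257) in epigonadal Ad Ia, 161 (128 to 199) in Ad IIc and 158 (95.1 to 247) in Ad Ib, which did not differ beyond their intervals. Ad IIa was at 30.7 CPM (21.7 to 42.2) and Ad IIb at 14.2 from 2 UMIs. In the thymic library Agt had 0 UMIs in labelled nuclei and 14 in 22235 unlabelled barcodes. Thymic Ad I, with 0 against 44 UMIs, was at least 2.9-fold lower, and all labels together were at least 13.8-fold lower.

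Apoe (ENSMUSG00000002985, chromosome 7, 19696244 to 19701310) varied least among thymic labels, from 102 CPM (73.3 to 139) in Ad IIa to 217 (79.6 to 472) in Ad Ia. The thymic intervals overlapped one another in all 5 labels. Epigonadal levels ran from 277 CPM in Ad IIb over Ad Ia at 355, Ad Ib at 457 and Ad IIa at 600 to 2486 in Ad IIc. Of the 5 genes with thymic UMIs in Ad IIa, Apoe had the smallest difference between libraries, at log2 −2.54 (−3.04 to −2.10).

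Each label was then compared between libraries. A gene was called lower or higher where the ratio was at least 2-fold with at least 10 UMIs over both sides, and a side at 0 was held at 3 counts. In Ad Ia, with 6 of 8 genes reaching 10 UMIs, 1 was called lower, Retn at log2 −1.07 (−2.52 to −0.05), beside 8.15% of 3339 genes. Of the 7 thymic Retn UMIs 4 were in 1 nucleus, and the call was lost with nuclei of at least 1000 UMIs (−0.06) and after free RNA was subtracted (−0.67). That subtraction took all unlabelled barcodes of a library as free RNA, scaled by T-cell markers. In the epigonadal library 2003 of these 3479 barcodes carried adipocyte markers and held 3039 of 4129 Apoe UMIs. RNA of such barcodes was thus subtracted too. Cfd was at 0.20 (−0.25 to 0.60), Car3 at −0.27 (−0.56 to 0.00), Apoe at −0.61 (−2.22 to 0.51) and Adipoq at −0.75 (−2.21 to 0.29), intervals that include or reach 0. Without the nucleus richest in Cfd on each side, the Cfd ratio was −0.15, and TMM scaling, which moved all Ad Ia ratios by −0.47, gave −0.27 for Cfd and −0.74 for Car3. Under TMM 4 of 8 genes were called lower in Ad Ia, and the background went from 8.15% lower and 16.4% higher to 19.4% and 5.69%. In Ad Ib, 4 of 8 genes were called lower (background 8.06% of 2977 genes): Retn, Cfd at −2.87 (−4.09 to −2.0), Car3 at −2.45 (−3.14 to −1.88) and Apoe at −1.04 (−2.85 to 0.14). The Apoe call rests on 5 thymic UMIs and turned to 1.49 after free RNA was subtracted and to 0.29 after thinning to 500 UMIs per nucleus. Under TMM 5 of 8 were called, and the background went from 8.06% lower and 21.4% higher to 24.0% and 8.03%. Adipocyte markers were at 16760 CPM in thymic and 23833 in epigonadal Ad Ib, with 13 and 15 of 15 detected. Endothelial markers were at 3051 and 2029 CPM. Under 500 UMIs lay 40 of 49 thymic and 22 of 152 epigonadal Ad Ib nuclei. The part of markers and depth in the Ad Ib ratios was not tested. For Ad Ia and Ad Ib together, called Ad I, 3 of 8 were lower, Retn, Agt and, on 1 thymic UMI, Rbp4 at −1.12 (−7.05 to 1.02), against 9.26% of 5346 genes lower and 15.2% higher. The Rbp4 call changed sign, to 0.53 with a pseudocount of 5, 1.06 after subtraction of free RNA and 0.67 after thinning. In Ad IIb, with 16 thymic nuclei, 4 of 8 were lower, beside 6.22% of 3245 genes. Endothelial markers were at 12879 and 11013 CPM in thymic and epigonadal Ad IIb, adipocyte markers at 8956 and 11603. Of 15 adipocyte markers 9 were detected in 27020 thymic UMIs and 15 in 140743 epigonadal ones. Plin1, Cidec, Acsl1, Cebpa, Dgat2 and Pck1 were at 0 in thymic Ad IIb. The part of these markers was not tested. None of the 8 was called higher in any of the 5 labels, while 16.4% of all genes were higher in Ad Ia and in Ad IIb, 21.4% for Ad Ib, 5.44% for Ad IIa and 32.7% for Ad IIc.

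The count in Ad I moved in both directions with the processing. It fell from 3 to 1 with nuclei of at least 1000 UMIs, and to 1 after thinning. For these settings the share over all genes was not computed, so the counts of 1 have no background beside them. TMM factors moved all Ad I ratios by −0.34 on the log2 scale, and 7 of 8 genes were then called lower, with 17.2% of all genes lower and 7.43% higher. Car3 in Ad I went from −0.92 (−1.18 to −0.68) to −1.26, and Cfd from −0.82 (−1.22 to −0.47) to −1.16.

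In Ad IIa all 8 genes were lower in the thymic library, beside 14.3% of 9775 genes. The median log2 ratio of the 8, with sums of 0 held at 3 counts, was −3.99, and over all genes it was −0.02. Retn was at −6.07 (−8.58 to −4.74, 3 against 726 UMIs), Adipoq at −5.33 (−7.38 to −4.13), Cfd at −4.45 (−4.86 to −4.09) and Car3 at −4.04 (−4.31 to −3.80). Adipocyte markers were at 13235 CPM in thymic and 21919 in epigonadal Ad IIa, endothelial markers at 12026 and 8842, and their part in these ratios was not tested. In Ad IIc all 8 were lower as well (background 14.9% of 6481 genes), from −3.68 for Apoe to −5.47 for Cfd among genes with over 3 thymic UMIs. The endothelial and erythroid RNA of thymic Ad IIc given above moved with this difference, and its part was not tested. TMM scaling left the count at 8 in Ad IIc, with the background at 34.6% lower and 17.3% higher against 14.9% and 32.7%. Over all labelled nuclei 8 of 8 were lower, beside 17.3% of 11306 genes lower and 8.12% higher (20.7% and 5.71% under TMM, again 8 of 8), and over unlabelled barcodes 8 of 8, beside 22.4% of 14979. The median mitochondrial share was 14.7% in thymic and 5.2% in epigonadal labelled nuclei, and 69.3% and 10.9% in unlabelled barcodes, whose median nuclear-encoded UMIs were 97 and 689. The labels were also mixed unlike, with Ad IIc at 34 of 365 labelled nuclei in the thymic library and 658 of 1564 in the epigonadal one. The part of label mix, mitochondrial share and depth in these differences was not tested.

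**Figure D2:**
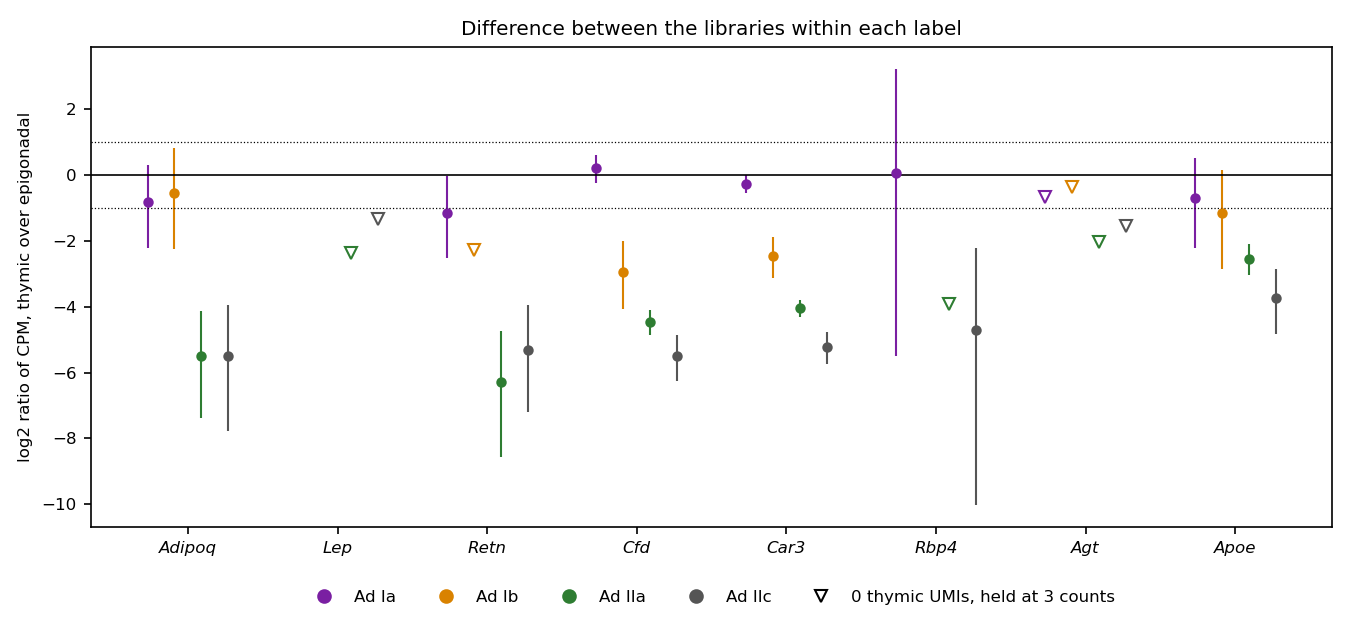
Log2 ratio of CPM, thymic over epigonadal (y axis), for each gene (x axis) within 4 labels; points are ratios without a pseudocount, bars are exact intervals, triangles hold 0 thymic UMIs at 3 counts, dotted lines mark 2-fold. Cfd and Car3 lie within 2-fold in Ad Ia and below the lower 2-fold line in Ad Ib, Ad IIa and Ad IIc.

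Droplets also take up free RNA, so each label was set against unlabelled barcodes that carried T-cell markers, cells that should lack these RNAs. There were 2088 such thymic barcodes, with a median of 501.5 UMIs, and 146 epigonadal ones, with 915. A class needed at least 3 different markers and 2 more than any other class, a rule set after the files were seen. Of the 2088 thymic barcodes 658 had just 3. Unlabelled barcodes with about as many adipocyte as T-cell markers, or more, were thus left out of the T-cell-marker set. That can put its level of these RNAs too low and the folds over it too high. Unlabelled epigonadal barcodes had a median of 5 adipocyte markers, and unlabelled thymic ones 0. The size of this effect was not tested. Thymic T-cell-marker barcodes held 0.118 Car3 and 0.0939 Cfd UMIs each, and 10.2% had a Car3 UMI. Epigonadal T-cell-marker barcodes held 0.815 Car3 and 0.493 Cfd UMIs each. In these barcodes too the thymic library was lower, for all 5 genes that reached 10 UMIs, beside 15.3% of 9273 genes, with Car3 at log2 −2.14 (−2.46 to −1.81) and Cfd at −1.75 (−2.14 to −1.34). The median mitochondrial shares of these barcodes were 28.0% and 10.9%. Thymic Ad Ia nuclei held 3.51 Car3 UMIs each, 29.7-fold more (23.7 to 37.0), 17.7-fold more Cfd (12.9 to 23.8), 32.1-fold more Retn (10.9 to 86.6) and 13.9-fold more Adipoq (5.16 to 32.3), at a like median depth. As given above, single nuclei held a large part of these Cfd UMIs and most of the Retn UMIs. The intervals do not cover such clumping. Epigonadal Ad Ia nuclei were at 8.94-fold (7.36 to 10.9) for Car3 and 5.05-fold (3.88 to 6.65) for Cfd over T-cell-marker barcodes of their own library. Thymic Ad Ib was at 7.10-fold (2.15 to 18.5) for Adipoq and 5.07-fold (1.57 to 12.8) for Apoe, on 5 UMIs each, at 3.97-fold (2.47 to 6.09) for Car3 and at 1.96-fold (0.882 to 3.79) for Cfd. Thymic Ad IIa, which was deeper, with a median of 1489 UMIs, was at 1.21-fold (0.308 to 3.42) for Adipoq and 2.09-fold (0.381 to 7.59) for Retn, ratios on 4 and 3 UMIs whose wide intervals include 1, so no excess over T-cell-marker barcodes was detectable at this depth. Its Apoe was at 8.82-fold (5.6 to 13.9), its Car3 at 4.72-fold (3.79 to 5.86) and its Cfd at 2.67-fold (1.96 to 3.60) per barcode. Scaled to CPM, these differences were smaller: Apoe was at 102 against 29.1 CPM (3.51-fold), Car3 at 321 against 171 (1.88-fold, short of 2-fold) and Cfd at 144 against 136.

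Macrophage-marker barcodes held Apoe well above the T-cell-marker level. In the thymic library 36 such barcodes held 0.528 Apoe UMIs each, 26.2-fold the T-cell-marker level (14.4 to 46.1), with Car3 at 3.05-fold (1.60 to 5.32). They held 1 Lep UMI and 0 of Adipoq and Retn. The upper limits of these 0 sums were 7.59-fold for Adipoq and 19.0-fold for Retn, too wide to show absence. In the epigonadal library 181 macrophage-marker barcodes held 2.12 Apoe UMIs each, 17.2-fold (10.7 to 29.3), and 1 barcode held 109 of the 383 UMIs. Their Adipoq was at 1.69-fold (0.764 to 4.03), and Car3 at 1.89 (1.52 to 2.36), Cfd at 1.57 (1.17 to 2.11) and, on 10 UMIs against 1, Rbp4 at 8.07 (1.15 to 350.1) were above 1. Macrophage markers were at 72.3 CPM in thymic and 738 in epigonadal Ad Ia, and at 247 and 251 in Ad IIa, and their part in the Apoe levels of the labels was not tested.

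**Figure D3:**
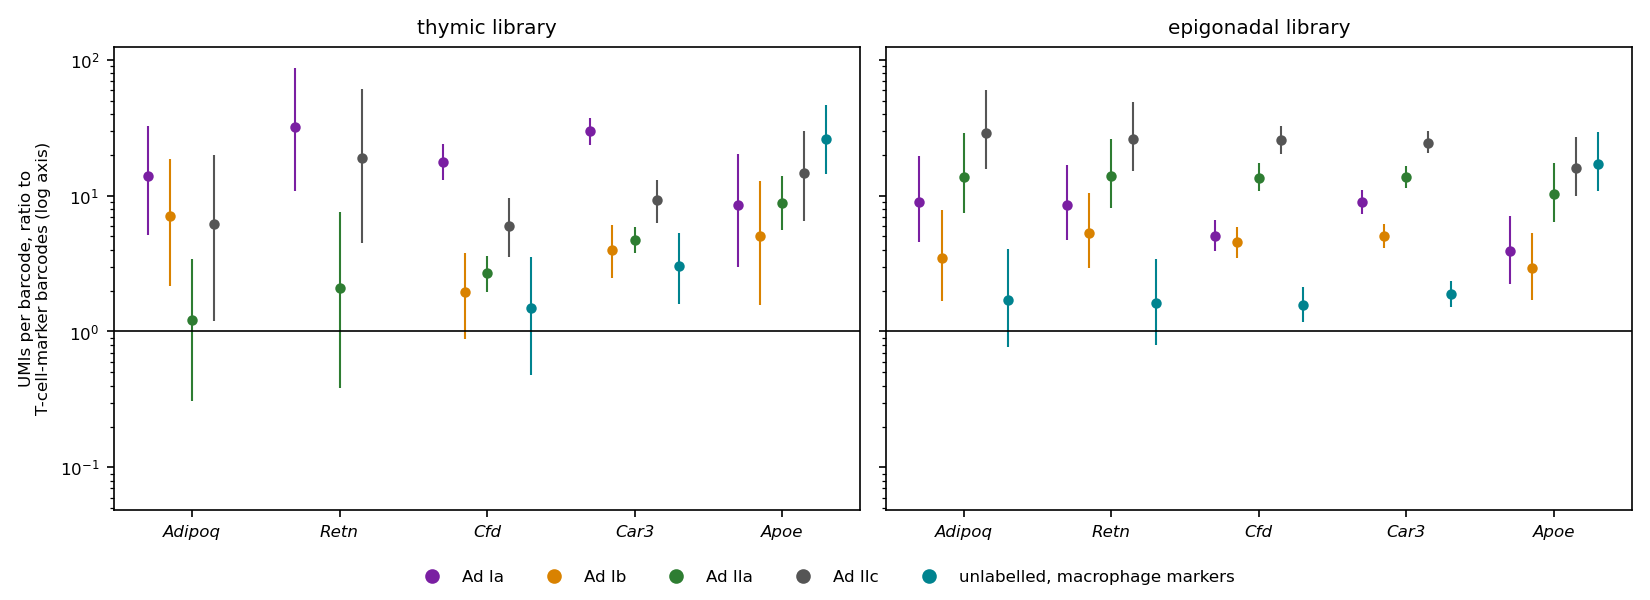
UMIs per barcode of 5 genes (x axis) as a ratio to T-cell-marker barcodes of the same library (y axis, log scale), for 4 labels and the macrophage-marker barcodes; bars are exact intervals. Thymic Ad Ia lies above 1 for all 5 genes, thymic Ad IIa includes 1 for Adipoq and Retn, and macrophage-marker barcodes are high for Apoe.

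Most UMIs of these genes in the thymic library were in unlabelled barcodes, many of them in barcodes with few markers of any class. The same held for all genes, with 4603069 nuclear-encoded UMIs in unlabelled barcodes and 534972 in labelled nuclei. The 17839 few-marker barcodes, with a median of 82 UMIs, held 2118 of the 3232 unlabelled Cfd UMIs and 295 of 458 for Adipoq. Over all nuclear-encoded genes they held 2044932 of the 4603069 unlabelled UMIs. Per barcode they were near the T-cell-marker level, at 1.15-fold (0.789 to 1.74) for Adipoq and 1.29-fold (0.938 to 1.81) for Apoe, with intervals that include 1. Cfd at 1.26-fold (1.09 to 1.47), Car3 at 1.48-fold (1.30 to 1.70) and Retn at 2.10-fold (1.20 to 4.00) were above 1. The few-marker barcodes are shallower, and scaled to CPM they were higher than T-cell-marker barcodes, with Adipoq at 144 against 20.8 CPM and Apoe at 226 against 29.1. Which share of these UMIs is free RNA was not tested. Labelled thymic nuclei had lower CPM than the unlabelled thymic barcodes for Adipoq (−1.38, −2.14 to −0.77), Retn (−1.47) and Cfd (−1.37), so 3 of 8 genes were called lower and 0 higher, beside 14.4% and 16.6% of 13408 genes. Of the labelled UMIs, 401448 of 534972 were from Ad IIa, and the labels differed. Against unlabelled thymic barcodes, Ad Ia had 5 of 8 genes higher, Adipoq, Retn, Cfd, Car3 and, on 1 UMI, Rbp4, beside 22.4% of genes. Ad Ib had 1 higher (Adipoq, beside 25.2%) and Ad IIc 1 (Rbp4 on 1 UMI, beside 23.5%). Ad IIa had 4 lower, Adipoq, Retn, Cfd and Car3, beside 15.8%, and Ad IIb 2, Cfd and Car3, beside 2.67%. In the epigonadal library 0 of 8 were called either way over all labels, beside 14.8% lower and 5.08% higher. There Ad IIc had 8 of 8 higher than unlabelled barcodes, beside 12.3% of genes, and Ad IIb 8 of 8 lower, beside 10.6%. Ad Ia had 3 lower (Cfd, Rbp4 and Apoe, beside 11.5%), Ad Ib 2 lower (Adipoq and Apoe, beside 5.97%), and both had Agt higher, beside 19.6% and 18.3%. Ad IIa had 0 either way, beside 18.6% lower and 8.88% higher. Adipocyte markers were detected in unlabelled barcodes as well. At least 3 of them, and 2 more than any other class, were found in 1214 thymic and 2003 epigonadal unlabelled barcodes, with medians of 232 and 649 UMIs. Of the thymic ones 509 had just 3 markers, of the epigonadal ones 89, and the median mitochondrial shares were 40.9% and 11.7%, so the sets are not alike in these measures. Between these sets Cfd was lower in the thymic library by log2 −2.20 (−2.31 to −2.08), Car3 by −2.23 (−2.32 to −2.14), Adipoq by −1.98 (−2.29 to −1.71) and Retn by −2.91 (−3.27 to −2.58), and 8 of 8 genes were called lower, beside 18.8% of 11713. Agt had 7 UMIs in the thymic set, 0 in T-cell-marker barcodes, and 203 in the epigonadal set.

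Detection of several genes in the same nucleus was counted next. Of thymic Ad Ia nuclei 8 of 35 had UMIs of at least 3 of the 8 genes, of Ad Ib 0 of 49, of Ad IIa 6 of 231, of Ad IIb 0 of 16 and of Ad IIc 4 of 34. Of epigonadal nuclei these were 61 of 106 in Ad Ia, 71 of 152 in Ad Ib, 461 of 590 in Ad IIa, 28 of 58 in Ad IIb and 649 of 658 in Ad IIc. These shares depend on depth. After each nucleus was thinned to 500 UMIs, which left 17 thymic and 104 epigonadal Ad Ia nuclei, 29.4% and 28.8% had at least 3. Car3 was then found in 82.4% (14 of 17, 56.6 to 96.2) and 82.7% (86 of 104, 74.0 to 89.4), Cfd in 58.8% and 44.2%, and Adipoq in 17.6% and 18.3%. Retn was found in 5.88% (1 of 17, 0.149 to 28.7) and 19.2% (20 of 104, 12.2 to 28.1). The unthinned Car3 shares of Ad Ia were 68.6% and 96.2%. Thinned T-cell-marker barcodes had Car3 in 6.74% of the thymic and 25.6% of the epigonadal ones, and at least 3 genes in 0% and 3.01%. The level in cells that should lack these RNAs thus differed between the libraries. Thinned epigonadal nuclei had at least 3 genes in 8.62% of Ad IIb, 35.4% of Ad Ib, 42.0% of Ad IIa and 96.2% of Ad IIc, which with Ad Ia is the order of the summed CPM. Thinned thymic nuclei had them in 0 of 9 in Ad Ib, 0 of 227 in Ad IIa, 0 of 16 in Ad IIb and 0 of 32 in Ad IIc.

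Within the epigonadal library 7 of 8 genes were at least 2-fold higher in Ad IIc than in Ad Ia, beside 23.9% of 7366 genes. The differences ran from log2 1.25 (0.27 to 2.59) for Lep to 3.66 (2.55 to 5.43) for Rbp4, with Cfd at 3.12 and Adipoq at 2.46. Agt was at −0.13 (−0.77 to 0.59). From Ad Ia to Ad IIa Agt was lower by −2.51 (−3.27 to −1.71), and Rbp4 was higher by 1.58 (0.45 to 3.36, 5 UMIs in Ad Ia), so 1 of 8 genes was called each way, beside 19.2% lower and 16.9% higher of 9743 genes. Cfd was at 0.79 (0.61 to 0.98) and Apoe at 0.74 (0.35 to 1.19), while Adipoq was at −0.02 (−0.38 to 0.38) and Car3 at −0.02 (−0.12 to 0.09). The labels came from the authors' clusters of these nuclei, so these ratios describe the annotation.

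Ratios of UMIs between 2 genes in the same sum do not depend on the total. Agt per Adipoq was 0.385 (0.232 to 0.619) in epigonadal Ad Ia and 0.528 (0.286 to 0.945) in Ad Ib. It was 0.0683 (0.0479 to 0.0950) in Ad IIa, 0.0640 (0.0506 to 0.0799) in Ad IIc and 0.0795 (0.0691 to 0.0911) in unlabelled barcodes. Car3 per Cfd was 2.92 (2.54 to 3.38) in epigonadal Ad Ia and between 1.59 and 1.85 in the other 4 labels. In the thymic library it was 2.12 (1.54 to 2.95) in Ad Ia, 2.56 (1.14 to 6.28) in Ad Ib, 2.22 (1.62 to 3.09) in Ad IIa and 1.95 (1.09 to 3.58) in Ad IIc. These 4 intervals overlap, and thymic Ad IIb had only 2 Car3 UMIs and 1 Cfd UMI. Unlabelled thymic barcodes were at 1.49 (1.43 to 1.56). Apoe per Cfd was 0.707 (0.462 to 1.07) in thymic Ad IIa, above the 0.188 (0.174 to 0.203) of epigonadal Ad IIa. Thymic Ad Ib at 0.556 (0.146 to 1.85) and Ad IIc at 0.526 (0.219 to 1.19) overlapped thymic Ad IIa, and Ad Ia was low at 0.103 (0.0365 to 0.239). Retn per Adipoq was 0.751 (0.651 to 0.866) in unlabelled thymic and 1.31 (1.25 to 1.38) in unlabelled epigonadal barcodes.

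**Figure D4:**
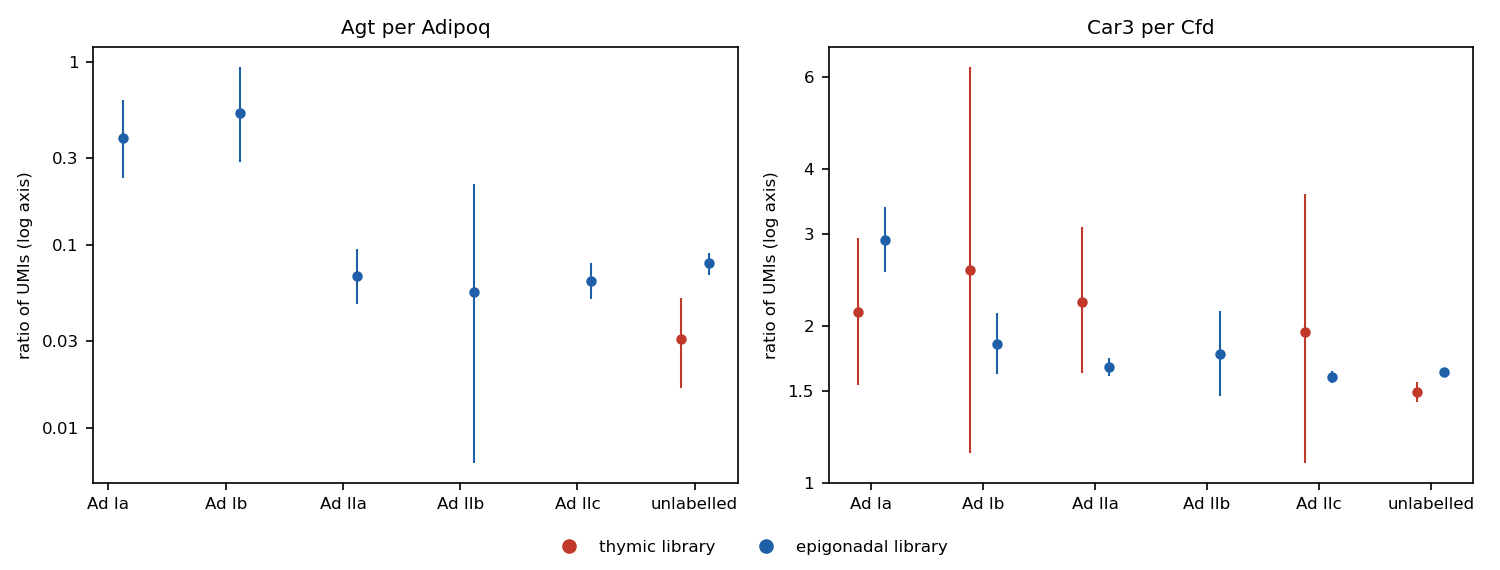
Ratio of UMIs of Agt per Adipoq and of Car3 per Cfd (y axes, log scale) in the labels and unlabelled barcodes (x axis) of both libraries, with exact intervals; sums under 10 UMIs or with 0 Agt UMIs are not drawn. Agt per Adipoq is higher in epigonadal Ad Ia and Ad Ib than in the other groups drawn, which include no thymic label, and Car3 per Cfd is highest in epigonadal Ad Ia among the epigonadal groups.

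Across the 12 sums (5 labels and the unlabelled barcodes in 2 libraries), the 7400 genes with at least 200 UMIs were ranked by the correlation of log2(CPM + 10), with the 8 genes themselves left out of the ranking. The sums share libraries and depth, and the values are a description. Most like Adipoq were Mgst1 (r = 0.97), a microsomal glutathione transferase, Ifi27l2a (0.96) and Pgd (0.94), an enzyme of the pentose phosphate pathway. Cfd and Car3 were at 0.99 with each other. Cfd ranked with Ifi27l2a (0.98), Gsn (0.97) and Dbi (0.96), Rbp4 with Dbi (0.97), Adig (0.96) and Aldoa (0.95), and Apoe with Scp2 (0.98), Aldoa (0.96) and Gpx1 (0.95). Agt ranked with Nnat (0.98), which encodes neuronatin, and Serpina3c (0.95). Lep ranked with Hoxc8 (0.99) and also Serpina3c (0.98), and Lep and Agt were at 0.94 with each other.

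Other secreted adipocyte products, a list of 43 genes, were measured in Ad I for 13 genes with at least 10 UMIs. Of these 2 were called lower and 1 higher, beside 9.26% lower and 15.2% higher of all genes, with a median log2 of −0.30 against 0.08 over all genes. Under TMM Angptl4 (−1.17) and Apoc1, with 0 thymic UMIs (−1.12 at the limit), were also past 2-fold lower. Ccdc80, a secreted matrix protein, was at 76.6 CPM in thymic and 705 in epigonadal Ad I (−3.04, −5.09 to −1.82). Nampt, the NAD-synthesis enzyme also called visfatin, was at 249 and 106 CPM (1.26, 0.16 to 2.23), and Nrg4, a growth factor of the epidermal growth factor family, at 536 and 341 (0.67, −0.02 to 1.28). The other gene called lower, named after its values were seen, was Fbn1 with 1 against 23 UMIs (−1.63, −7.55 to 0.44). Fibroblast markers were at 362 and 407 CPM in thymic Ad Ia and Ad Ib, against 1414 and 1813 in the epigonadal labels. Their part in these 2 calls was not tested. In Ad IIa 13 of 19 were called lower, among them Igf1 at −4.10 (−6.61 to −2.75), and 0 higher, beside 14.3% lower and 5.44% higher of all genes. Cxcl12, a chemokine of stromal and endothelial cells, was at 269 and 359 CPM there (−0.41, −0.73 to −0.11), and C1qtnf9, an adiponectin paralog, at 139 and 128 (0.14, −0.34 to 0.58).

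Receptors of these products were read on the same scale. Of 9 receptors with at least 10 UMIs in Ad I, 0 were called lower and 2 higher, the lipoprotein receptors Vldlr (1.55, −0.44 to 3.22) and Scarb1 (1.18, −0.55 to 2.58), on 5 and 6 thymic UMIs. Over all genes 15.2% were higher and 9.26% lower, so these counts are near the background. Adipor2, an adiponectin receptor, was at 1761 CPM in thymic and 891 in epigonadal Ad I (0.99, 0.62 to 1.34; 0.65 under TMM scaling). Under TMM Scarb1 was at 0.84 and Nampt at 0.92, so neither remained past 2-fold, and Vldlr was at 1.21. Cdh13, the T-cadherin that binds adiponectin on endothelium, was at 1906 and 2306 CPM in Ad IIa (−0.27, −0.39 to −0.16), and 3 of 9 receptors were called lower there: Lrp1, Tlr4 and Vldlr, each on 1 or 2 thymic UMIs, beside 14.3% of all genes.

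Of 12 measured processing partners, 0 were called lower and 2 higher in Ad I: Hspa5, an endoplasmic reticulum chaperone, at 1.13 (0.08 to 2.04), and Erp44, which retains adiponectin in the secretory pathway, at 1.11 (−1.11 to 2.81) on 4 thymic UMIs. The share higher is at the background of 15.2%. Under TMM these were at 0.79 and 0.78, and Apoc1 was past 2-fold lower, as above. Abca1, the cholesterol exporter that loads apolipoproteins, was at 383 and 580 CPM (−0.57, −1.35 to 0.08). In Ad IIa 8 of 15 partners were called lower, beside 14.3% of all genes, among them complement C3, cleaved in the pathway of factor D, at −2.88 (−5.40 to −1.5), and Apoc1, the apolipoprotein gene beside Apoe, at −2.78 (−4.10 to −1.86). Among carbonic anhydrases and sister genes in Ad IIa, Car4, an enzyme on the capillary surface, was at 336 CPM in the thymic library and differed by 0.08 (−0.21 to 0.36), and Car5b, the mitochondrial form, at 34.9 and 164 (−2.19, −3.13 to −1.45). Car8 was called higher on 8 against 2 UMIs (3.39, 1.30 to 6.90).

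Chromatin accessibility was read in 317 labelled nuclei of the 6-month thymic library: 146 labelled thyAD I, 140 labelled thyAD II and 31 labelled Immune, with 1646902, 2189613 and 561387 fragments. All 8 gene windows (gene body and 2 kb on each side) had fragments in all 3 labels. Between thyAD II and thyAD I, 1 of 8 genes was called higher, Agt, and 0 lower, beside 4.46% higher and 2.99% lower of 27863 genes. Agt had 65 fragments (29.7 FPM, fragments per 1000000 fragments of the label) in thyAD II and 16 (9.72 FPM) in thyAD I, which puts the log2 ratio at 1.58 (0.81 to 2.50). Rbp4 had 102 and 43 fragments (0.83, 0.31 to 1.39). The remaining 6 lay between −0.20 and 0.19 with intervals that include 0, among them Adipoq at 107 and 105 FPM (0.02, −0.26 to 0.32), Car3 at 152 and 174, and Lep at 61.2 and 53.4. The median was 0.11, and 0.02 over all genes. These labels also came from the authors' clusters, and Agt and Rbp4 RNA of these nuclei was not analysed here.

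At start sites, within 500 bases on each side, Agt had 33 fragments in thyAD II (15.1 FPM, 10.4 to 21.2), 6 in thyAD I (3.64, 1.34 to 7.93) and 3 in Immune. Adipoq had 56, 42 and 7, which is 25.6, 25.5 and 12.5 FPM. Lep had 37 and 29 fragments (16.9 and 17.6 FPM) in thyAD II and thyAD I, in a window wider than the sequence printed above, and 6 in Immune (10.7 FPM, 3.92 to 23.3). The Immune interval overlapped those of thyAD II (11.9 to 23.3) and thyAD I (11.8 to 25.3). In thyAD I the Lep site held more fragments than 77.3% of 27025 start sites, and the Agt site more than 60.1%. In thyAD II these shares were 76.0% and 73.9%, and the Lep site of Immune held more than 70.2%. The second Rbp4 start site had 64 fragments in thyAD II (29.2 FPM, 22.5 to 37.3) and 36 in thyAD I (21.9, 15.3 to 30.3), and those intervals overlap. A second accessible stretch lay about 2 kb before the Adipoq start: the 200-base bin centred 1900 bases before it held 57 insertions in thyAD II, 35 in thyAD I and 8 in Immune, beside 56, 38 and 10 in the bin just before the start.

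Between Immune and thyAD I nuclei, 0 of 8 genes were called, beside 9.48% lower and 9.5% higher of 24622 genes. Adipoq was lower in Immune at 55.2 against 105 FPM (−0.91, −1.53 to −0.37), and Car3 at 105 against 174 (−0.71, −1.15 to −0.32). The other 6 had intervals that include 0, and the median of the 8 was −0.34. Between Immune and thyAD II, Rbp4 (−1.32, −2.49 to −0.45) and Agt (−1.16, −2.62 to −0.13) were called lower, beside 10.4% of 26191 genes. The Apoe window also covers Tomm40, and the windows of Cfd, Car3 and Rbp4 each cover 1 predicted noncoding or pseudogene, so fragments there cannot be assigned to 1 gene.

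**Figure D5:**
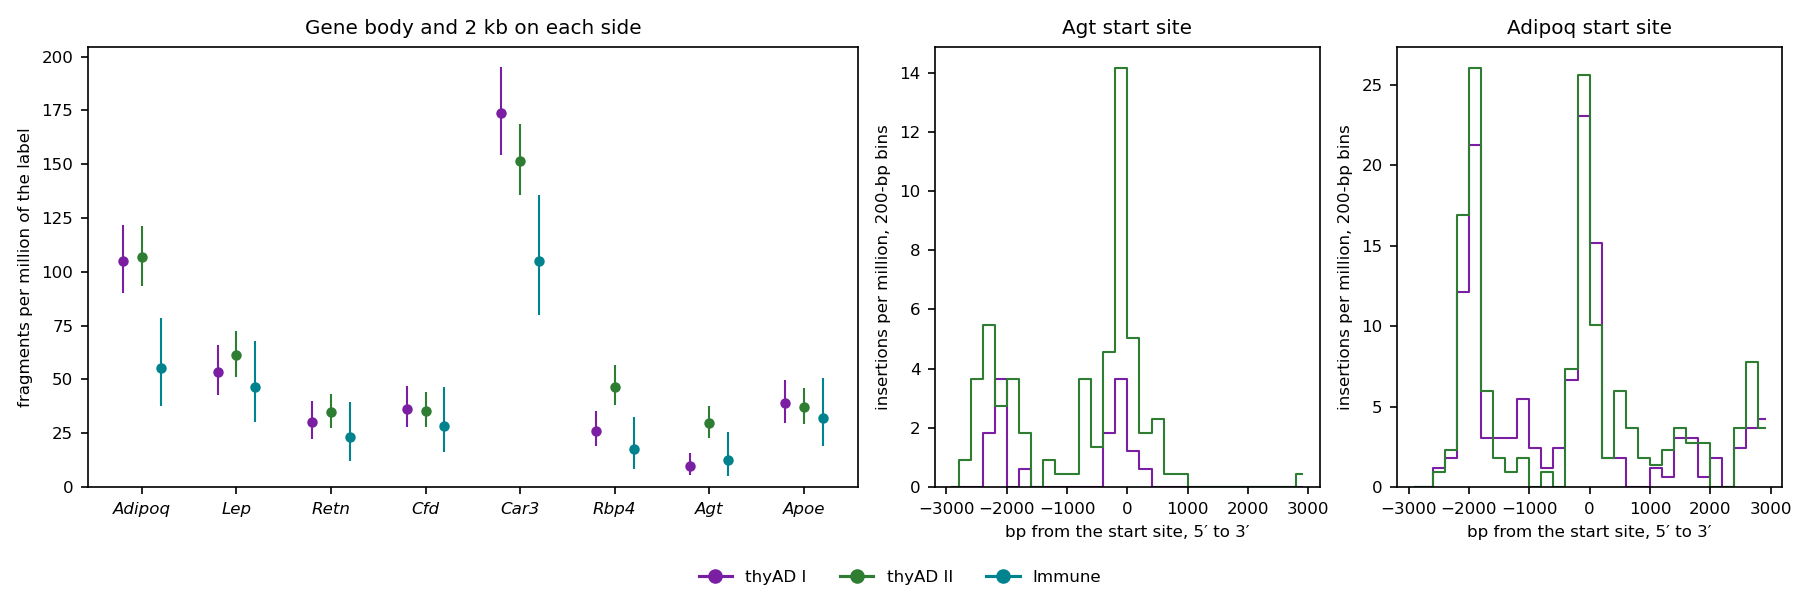
Left, FPM (y axis) over the window of each gene (x axis) in the 3 chromatin labels with exact Poisson intervals; right, for thyAD I and thyAD II, insertions per 1000000 fragments in 200-bp bins (y axis) by distance from the Agt and Adipoq start sites (x axis, bp). Agt is higher in thyAD II in the window and at its start site, and Adipoq is at a like level in thyAD I and thyAD II with a second peak about 2 kb before the start.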

How the data were processed

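The authors deposited unnormalized UMI counts for each gene in each barcode (cellranger 7.2.0, per the file headers), and for each nucleus a label and its percent of mitochondrial UMIs. Whether introns were counted is not stated in what was read here. The fragment file names cellranger-arc 2.0.2 and GRCm38, per the file headers. The submitters' processing notes name Seurat 5.1.0. The 6-month label table used here stopped inside a row, so 317 complete rows were used.

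UMIs were added up over the nuclei of a label in each library and scaled to the nuclear-encoded total (CPM), with 0.5 UMI added for log2 ratios. Intervals are exact Poisson, Clopper-Pearson and binomial-split intervals. Only the binomial-split intervals were run on simulated data, with Poisson counts, the model they assume. Clumping of UMIs in single nuclei was not simulated, so that run cannot show how the intervals behave under it. Scaling factors came from edgeR 4.0.16, with no test. All labelled nuclei carried the authors' scDblFinder class singlet. All 8 members were named; from other lists, the 3 highest in CPM and the 2 largest ratios in each direction within a comparison could be named. Ero1a was matched as Ero1l. Members, lists and rules were chosen with earlier results of these data known.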

Additional observations from a re-analysis of the deposited data

How the results depend on the processing

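The 8 of 8 genes lower in the thymic library over all labelled nuclei stayed 8 under all 9 alternatives run, and in Ad IIa the count stayed 8 except for 6 after thinning to 500 UMIs. None of the 9 held the mix of labels fixed, so the count over all labelled nuclei also carries the unlike mix. In Ad I the count of 3 became 7 under TMM and under median-of-ratios scaling, 6 with equal weight per nucleus, and 1 with nuclei of at least 1000 UMIs or after thinning. Among these settings, the share over all genes was recomputed only under the scalings. The cause of the changes was not tested beyond the shift of −0.34 that the scalings give. The Rbp4 call in Ad I, on 1 thymic UMI, changed sign to 0.53 with a pseudocount of 5. It was 1.06 after subtraction of free RNA and 0.67 after thinning. The Apoe call in Ad Ib changed to 1.49 after subtraction and 0.29 after thinning. The profile subtracted was that of all unlabelled barcodes, adipocyte-marker ones among them. The cause of these changes was not tested. Genes of the whole table called lower under TMM scaling numbered 922 against 495 in Ad I, 649 against 272 in Ad Ia, 714 against 240 in Ad Ib and 2242 against 967 in Ad IIc. Without a minimum of UMIs the share lower was 3.24% in Ad I, 8.94% in Ad IIa and 10.5% over all labelled nuclei. Of 432 recomputed log2 ratios between libraries, 369 stayed inside the counting interval and 5 changed sign after a call. With 0 thymic UMIs that interval has no lower end, so such a ratio could leave it only upward. Lep and Agt are of this kind in all labels, so the 369 is no measure of their stability. The counts of 0 genes higher in labelled nuclei stayed 0 under the 5 alternatives, and under the 6 chromatin alternatives the medians ranged from −0.07 to 0.35 for thyAD II over thyAD I and from −0.63 to −0.07 for Immune over thyAD I. The removal of the nucleus richest in a gene and the start-site window were chosen after seeing the data. No paired analysis was possible because each group was 1 library, and no library could be left out. In thymic Ad I, with 52241 UMIs, a sum of 0 held at 3 counts is at 57.4 CPM.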
